A study of Mus musculus with 4 samples.

Results

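The genes described here are 38 lysosomal genes of the mouse heart, chosen by gene symbol: 9 cathepsins and legumain, 12 other hydrolases, 4 activator and carrier proteins, 6 membrane glycoproteins, 5 proton pump subunits, and the transcription factor Tfeb with the calcium channel Mcoln1. All 38 were among the 32287 features counted. RNA was counted in single live nucleated cells sorted from digested hearts, in 4 droplet libraries with 1 library for each group. The groups were deletion-labelled hearts (genotype Tcf21-MerCreMer:flox, titled Tcf21-MCM/fl) 3 days after myocardial infarction, control hearts (Tcf21-MerCreMer, titled Tcf21-MCM) 3 days after infarction, deletion-labelled hearts without infarction, and control hearts without infarction. All of them had tamoxifen and carry MerCreMer, a Cre recombinase that tamoxifen activates, so the control hearts carry the recombinase too. The study asked what TCF21, a transcription factor of fibroblasts, does in the heart by deleting it in cardiac fibroblasts. The labels do not give the floxed stretch of Tcf21, the age of the mice or how many hearts went into a library.

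Lysosomes are acidic organelles in which cells break down what they engulf and what they recycle. Cathepsins and legumain cut proteins, other hydrolases split lipids, sugar chains and RNA, and saposins made from prosaposin (Psap) present lipids to those enzymes. A vacuolar proton pump acidifies the lumen, glycoproteins such as LAMP1 and LAMP2 line the membrane from within, and TFEB drives many lysosomal genes through a short promoter motif called the CLEAR element. In the infarcted heart, monocytes enter from the blood and turn into macrophages that engulf dead cells, while fibroblasts turn into matrix-producing cells.

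The libraries held 9149 to 11541 cell barcodes and 55710468 to 129704045 UMIs, that is, distinct RNA molecules read, and 161 of 41605 barcode strings occurred in at least 2 libraries. After filtering, 37115 cells fell into 29 clusters, of which 24 could be given 1 of 14 cell classes from marker genes that include none of the 38. The classes are marker-based ("fibroblast-like" and so on), and the suffix is left out below. Cardiomyocyte markers marked 28 cells, and the labels call the samples interstitial cells. Another 2 clusters held phagocytes with no subtype, 292 cells in the deletion-labelled and 375 in the control infarction library, and were taken as a class of their own. In 3 clusters no class could be given, and these held 233 and 137 cells of the deletion-labelled and control infarction libraries and 2229 and 1108 cells of the deletion-labelled and control libraries without infarction. Tcf21 itself was at 32.4 CPM (UMIs of the gene per 1000000 UMIs of the class in a library) in deletion-labelled and 22.4 in control fibroblasts after infarction, and at 146 CPM in deletion-labelled and 95.1 CPM in control fibroblasts without it. Reads from the end of the transcript need not lie in the floxed stretch, so these levels do not check the deletion.

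With 1 library per group there was no test, and a difference between libraries may be one between hearts or preparations. Levels are given in CPM and compared within a gene only. Brackets after a log2 ratio hold its exact 95% interval, which covers counting error only. A gene is called higher or lower where its CPM differed by at least 1.5-fold and its count passed a low-count filter.

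Lysosomal transcripts took their largest share of UMIs in phagocytes. The 38 genes made up 3.18% of all UMIs in deletion-labelled and 3.38% in control Gpnmb macrophages after infarction, which are cells with Gpnmb, Trem2 and Spp1. They made up 2.44% and 2.58% of the UMIs of deletion-labelled and control monocytes, 1.13% in dendritic cells of both libraries, and 0.804% and 0.838% in neutrophils of the deletion-labelled and control hearts. In resident macrophages, which carry Lyve1, Cd163 and Folr2 and numbered 13 and 0 cells in the infarction libraries against 376 and 554 without infarction, the share was 1.55% in deletion-labelled and 1.67% in control cells. Fibroblasts stood at 0.554% in deletion-labelled and 0.506% in control hearts after infarction, and at 0.629% in deletion-labelled and 0.650% in control hearts without it. Endothelial cells stood at 0.524% in deletion-labelled and 0.497% in control hearts after infarction, and at 0.356% and 0.362% in deletion-labelled and control hearts without it. The share was thus lower after infarction over all fibroblasts and higher over all endothelial cells in both genotypes. Fibroblasts with and without infarction lay mostly in different clusters, described below. In the deletion-labelled hearts, the cluster led by Pi16 was at 0.655% after infarction against 0.613% without it. The cluster led by Smoc2 was at 0.756% against 0.644% there, so both were higher. The cluster led by Cthrc1, which held most fibroblasts after infarction, stood at 0.526% in deletion-labelled and 0.503% in control hearts.

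Within the lysosomal UMIs, the weight of the roles differed between classes. Cathepsins and legumain held 57.1% of them in deletion-labelled and 59.8% in control Gpnmb macrophages, against 42.8% in deletion-labelled and 44.6% in control resident macrophages. In endothelial cells they held 38.2% in deletion-labelled and 40.8% in control hearts after infarction, against 31.4% and 29.2% without it. Relative to phagocytes, Ctsb, Ctsc, Ctss and Lgmn in these deletion-labelled cells after infarction lay no higher than the highest of the phagocyte genes described below. In the control cells Ctsc and Ctss did so. The part of phagocyte RNA in these shares was not tested. Membrane glycoproteins held 37.8% in deletion-labelled and 40.7% in control fibroblasts after infarction, against 31.9% and 35.0% without it.

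Gpnmb macrophages had the highest CPM of the 10 classes compared for 26 of the 38 genes in the deletion-labelled and 24 in the control infarction library. Without infarction, resident macrophages were highest for 24 of 38 among 8 classes in the deletion-labelled and for 28 among 6 classes in the control library. The other genes were highest in several classes. Ctsk, the collagen-cutting cathepsin of osteoclasts, was highest in fibroblasts in all 4 libraries, at 73.2 CPM in deletion-labelled and 59.3 CPM in control hearts after infarction and at 88.0 and 74.8 CPM without it. Ctsh, an aminopeptidase cathepsin, was highest in dendritic cells after infarction, at 717 CPM in deletion-labelled and 733 CPM in control hearts, against 462 and 486 CPM in their Gpnmb macrophages. Neu1, the sialidase, was highest in neutrophils after infarction, at 121 CPM in deletion-labelled and 134 CPM in control hearts, against 72.3 and 71.9 CPM in Gpnmb macrophages. Neutrophils were also highest for Tfeb, at 36.6 and 33.3 CPM, and for Scarb2, the receptor that carries glucocerebrosidase to the lysosome, at 213 and 245 CPM, in deletion-labelled and control hearts. Without infarction, fibroblasts were highest for Ctsl, at 1065 CPM in deletion-labelled and 1005 CPM in control hearts, and for Gaa, the acid glucosidase that breaks down glycogen, at 62.6 and 61.6 CPM.

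**Figure D1:**
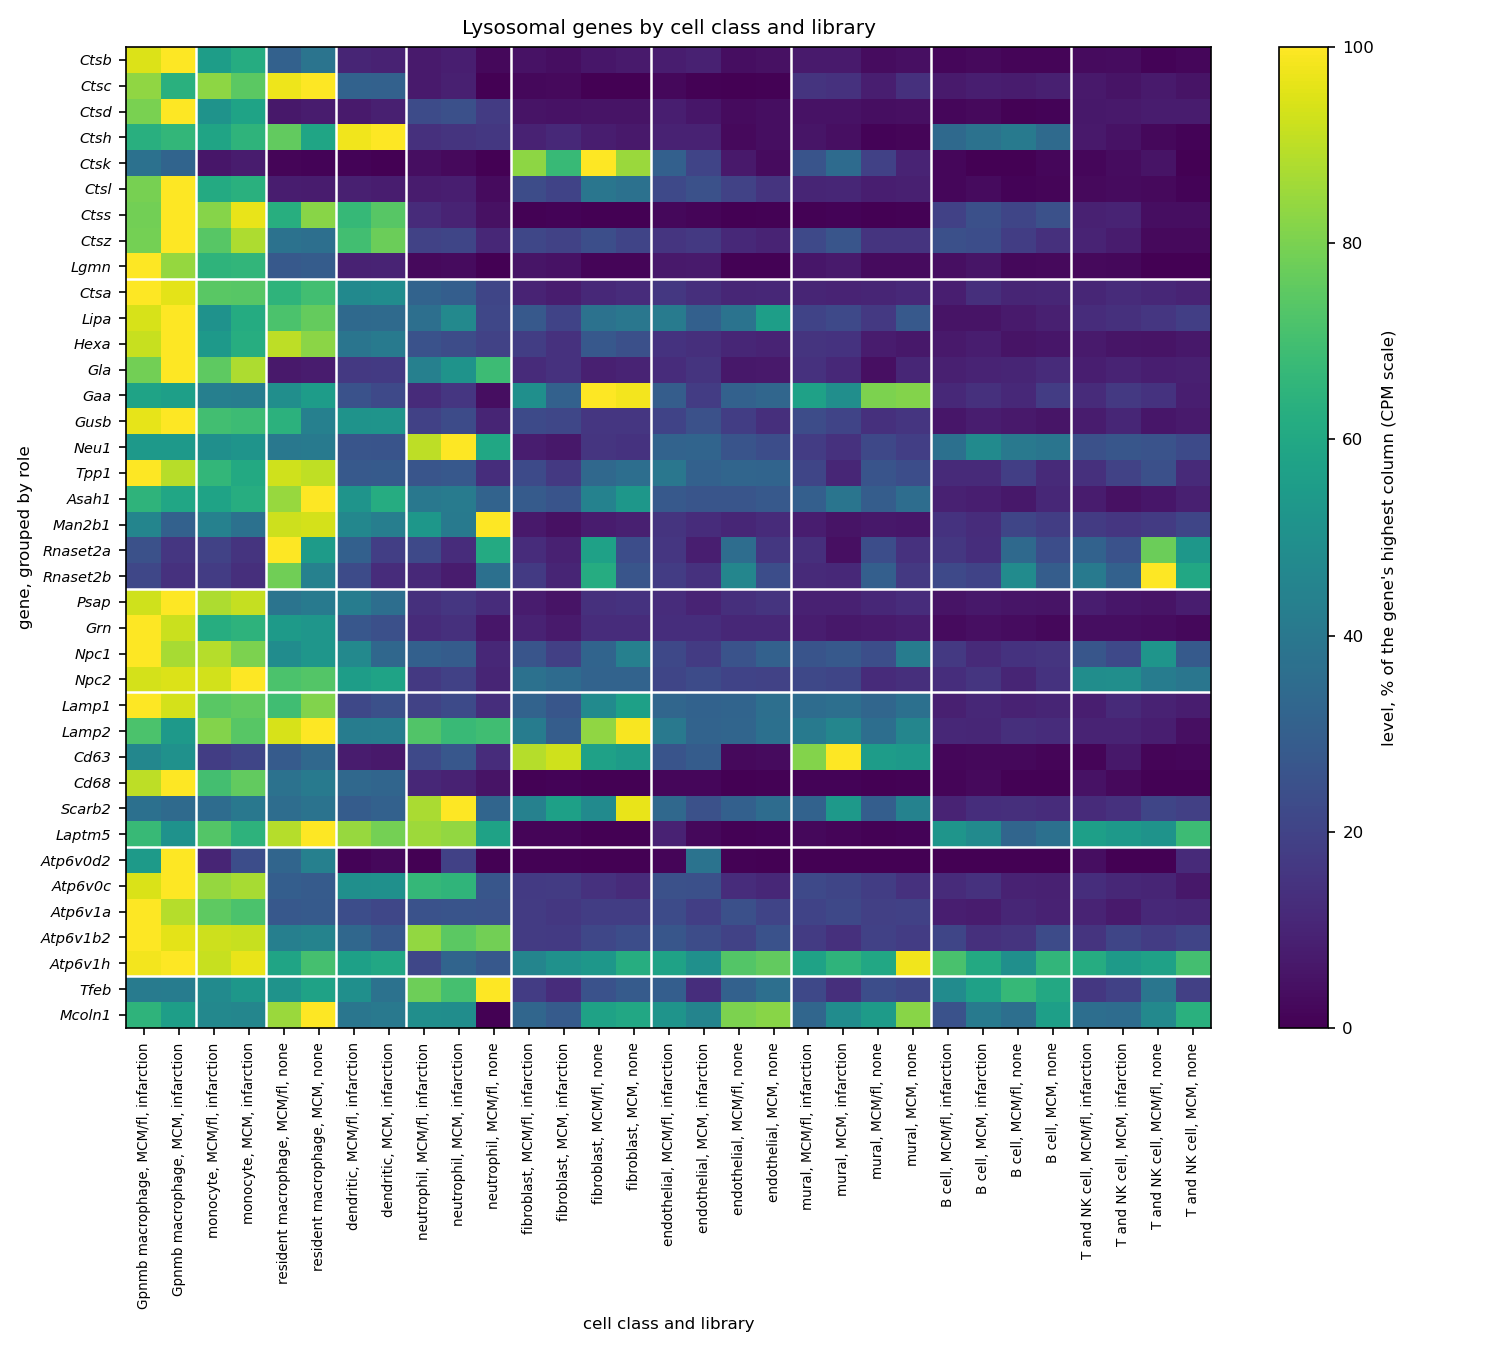
Heat map of the 38 lysosomal genes (rows) in cell classes and libraries with at least 50 cells (columns). Phagocytes with no subtype and erythroid cells are left out. Colour gives CPM as a percentage of that gene's highest column among those shown, on a scale of 0 to 100. Most rows are brightest in the Gpnmb macrophage or resident macrophage columns, and Ctsk is brightest in fibroblasts.

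Gpnmb macrophages were set against the monocytes of the same library, 884 against 1261 cells in the deletion-labelled and 1084 against 1434 cells in the control infarction heart. In the deletion-labelled heart 10 of 38 lysosomal genes were higher in Gpnmb macrophages and 0 were lower, against 17.3% higher and 9.2% lower of all 11955 genes that passed the filter. In the control heart 8 of 38 were higher and 0 lower, against 16.4% and 12.1% of 12078 genes. The members' median log2 ratio was 0.29 in the deletion-labelled and 0.20 in the control heart, where that of all genes was 0.10 and 0.06. Ctsb, Ctsd, Ctsk, Lipa, Hexa, Cd63 and Atp6v0d2 were higher in both hearts, which makes 7.

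Among the proteases, Ctsb, a cysteine cathepsin of broad use, was at 6067 CPM in Gpnmb macrophages and 3571 CPM in monocytes of the deletion-labelled heart, and at 6404 against 3972 CPM in the control heart. Its log2 ratios were 0.76 (0.75 to 0.78) in the deletion-labelled and 0.69 (0.68 to 0.70) in the control heart. Ctsd, the main aspartic protease of the lysosome, was at 3886 against 2502 CPM in the deletion-labelled heart (0.64 (0.62 to 0.65)) and at 4868 against 2829 CPM in the control heart (0.78 (0.77 to 0.80)). Both proteases were thus higher by a like amount in each heart. Ctsl passed the limit in the control heart at 0.65 (0.64 to 0.67) and stood at 0.38 (0.36 to 0.40) in the deletion-labelled heart, while Lgmn did the opposite, at 0.62 (0.59 to 0.64) in the deletion-labelled and 0.35 (0.33 to 0.38) in the control heart. Ctss and Ctsc, which phagocytes use for antigen processing and for activating granule proteases, and Ctsh and Ctsz lay within the 1.5-fold limit in both.

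Of the lipid and sugar enzymes, Lipa, which frees cholesterol and fatty acids from engulfed lipoproteins, was at 260.2 CPM in Gpnmb macrophages against 141 CPM in monocytes of the deletion-labelled heart, and at 277 against 170.4 CPM in the control heart. The log2 ratios of Lipa were 0.88 (0.81 to 0.94) and 0.70 (0.64 to 0.76). At a coarser clustering, which drew the monocyte class otherwise, the deletion-labelled ratio was -0.12. Hexa, a subunit of the ganglioside-cutting hexosaminidase, was at 451 against 265 CPM in the deletion-labelled and 492 against 306 CPM in the control heart, giving 0.77 and 0.68. These were the only other hydrolases called in both hearts, since Tpp1, a peptidase, was called in the deletion-labelled heart alone, at 0.59 against 0.55 in the control heart. Grn, the progranulin gene, likewise stood at 0.68 in the deletion-labelled and 0.51 in the control heart.

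Cd63, a tetraspanin of late endosomes and exosomes, gave the clearest step among the membrane genes. It was at 720.3 CPM in Gpnmb macrophages against 282 CPM in monocytes of the deletion-labelled heart and at 786 against 322 CPM in the control heart, for log2 ratios of 1.36 (1.31 to 1.40) and 1.29 (1.25 to 1.32). Lamp2 and Laptm5 went the other way within the limit. Lamp2 stood at -0.19 in the deletion-labelled and -0.45 in the control heart, and Laptm5, a membrane protein of blood cells, at -0.11 and -0.34.

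The UMIs of the 2 genes with the highest log2 ratios came from few cells. Ctsk was at 33.0 CPM in Gpnmb macrophages against 5.40 CPM in monocytes of the deletion-labelled heart and at 28.5 against 6.69 CPM in the control heart, giving 2.61 (2.33 to 2.90) and 2.09 (1.85 to 2.34). A single Gpnmb macrophage held 415 of the 621 Ctsk UMIs of the class in the deletion-labelled heart and another 345 of 665 in the control heart. Without the highest cell of each class the log2 ratios of Ctsk were 1.21 in the deletion-labelled and 1.11 in the control heart, and without the 10 highest cells 0.70 and 1.11. Atp6v0d2, the proton pump subunit known from osteoclasts and macrophages, was at 8.22 against 1.54 CPM in the deletion-labelled heart and at 15.1 against 3.56 CPM in the control heart, giving 2.42 (1.88 to 2.99) and 2.08 (1.75 to 2.43). Its log2 ratios did not shrink in the same way, at 2.72 and 2.01 without the highest cell of each class and 2.78 and 3.05 without the 10 highest. The 10 cells with the most UMIs held 56.1% of its Gpnmb macrophage UMIs in the deletion-labelled and 46.9% in the control heart, and for Ctsk 85% and 62.9%. For the other 36 members that share was 3.79% to 10.4% in the deletion-labelled and 3.59% to 11.8% in the control heart.

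The count of higher genes in this comparison depended on how the cells were divided. It was 22 of 34 genes at a coarser clustering and 16 at a finer one in the deletion-labelled heart, and 17 at the finer one in the control heart. The coarser clustering left under 50 monocytes in the control infarction library, against 1434 in the main setting. Its monocyte class is thus not the same set of cells, and its values are not the same contrast. With predicted doublets kept in, it was 18 in the deletion-labelled and 16 in the control heart. Centring the ratios on the median of all genes left 6 in the deletion-labelled heart, and a mitochondrial limit of 10% gave 13 in the control heart.

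The wider gap was to resident macrophages. Since the infarction libraries held 13 and 0 resident macrophages, Gpnmb macrophages after infarction were set against resident macrophages of the same genotype without infarction, so that class, treatment and library differ together and cannot be told apart. In the deletion-labelled pair 18 of 38 genes were higher and 3 lower, against 21.7% higher and 28.5% lower of all 10599 genes. In the control pair 17 were higher and 8 lower, against 22.7% and 38.7% of 10538 genes. The members' median log2 ratio was 0.55 in the deletion-labelled and 0.43 in the control pair, where that of all genes was -0.08 and -0.28. In both pairs 16 genes were higher and Man2b1, Rnaset2a and Rnaset2b were lower. With ratios centred on the median of all genes, 22 were higher and 5 lower in the control pair.

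Proteases led this set. Of the 9 cathepsins and legumain, 6 were higher and 0 lower in the deletion-labelled pair, with a median of 1.61, and 6 higher and 1 lower in the control pair, with a median of 1.45. Ctsd was at 3886 CPM in Gpnmb macrophages against 311 CPM in resident macrophages of the deletion-labelled genotype and at 4868 against 369 CPM in the control genotype, giving 3.64 (3.57 to 3.72) and 3.72 (3.66 to 3.79). Ctsl, which cuts engulfed and autophagic protein, was at 2150 against 216 CPM in the deletion-labelled pair and 2705 against 208 CPM in the control pair, giving 3.32 (3.23 to 3.41) and 3.70 (3.61 to 3.79). Both thus differed by a like amount in the genotypes. In cells thinned to 2000 UMIs each, Ctsd was found in 95.3% of deletion-labelled and 97.8% of control Gpnmb macrophages, against 40.3% and 44.5% of resident macrophages, and before thinning in 99.3% and 99.9% against 79.5% and 75.3%. Lgmn, an endopeptidase that cuts after asparagine, gave 1.85 in the deletion-labelled and 1.53 in the control pair, and Ctsb 1.61 and 1.37. Ctsk stood at 4.94 (3.71 to 6.57) and 4.85 (3.62 to 6.47), but resident macrophages held 5 UMIs of it in each genotype and 1 cell held most of it in Gpnmb macrophages. Ctsc was lower in the control pair alone, at -0.66 against -0.22 in the deletion-labelled pair, and Ctss and Ctsh stayed within the limit in both.

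Among the 12 other hydrolases the members split. In the deletion-labelled pair 2 were higher and 3 lower, and in the control pair 2 were higher and 4 lower, with medians of 0.17 and 0.15. Gla, the galactosidase that is lacking in Fabry disease, was at 64.8 CPM in Gpnmb macrophages against 5.57 CPM in resident macrophages of the deletion-labelled genotype and at 82.4 against 6.15 CPM in the control genotype. Its log2 ratios were 3.54 (2.98 to 4.16) and 3.74 (3.23 to 4.31), from 1222 against 26 UMIs and 1923 against 31 UMIs. In thinned cells Gla was found in 10.1% of deletion-labelled and 15.7% of control Gpnmb macrophages, against 0.806% and 0.738% of resident macrophages. Before thinning these shares were 62.1% and 71.7% against 6.12% and 5.60%. B cells of the libraries without infarction had Gla in 1.34% of deletion-labelled and 1.38% of control cells after thinning, so the resident share could not be told from a background level. Man2b1, the acid mannosidase, was at 210 against 427 CPM in the deletion-labelled and 142 against 431 CPM in the control pair, giving -1.03 (-1.10 to -0.95) and -1.6 (-1.68 to -1.52). Rnaset2a and Rnaset2b, a pair of near-identical genes for the acid ribonuclease, gave -2.01 and -1.88 in the deletion-labelled and -1.80 and -1.61 in the control pair.

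All 5 proton pump subunits were higher in the deletion-labelled pair, with a median of 1.22, and 4 of 5 in the control pair, with a median of 1.2. Atp6v0c, which forms the proton-carrying ring in the membrane, was at 1606 against 506 CPM in the deletion-labelled and 1705 against 491 CPM in the control pair, giving 1.67 (1.6 to 1.73) and 1.79 (1.74 to 1.85). Atp6v1a, the subunit that hydrolyses ATP, gave 1.85 and 1.64, and Atp6v1b2 gave 1.22 and 1.10. Atp6v1h, a regulatory subunit, stood at 0.76 in the deletion-labelled and 0.50 in the control pair. Atp6v0d2 gave 0.74 and 1.2 from 155 and 352 UMIs in Gpnmb macrophages. In the deletion-labelled pair its call ended and its direction turned at a coarser clustering, where it was -0.073. Without the 10 highest cells it was at 3.61 CPM in deletion-labelled Gpnmb macrophages, against 1.28 CPM in resident macrophages without their 10 highest and 4.92 CPM in all of them.

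Of the activators and carriers, Psap, Grn and Npc1, the cholesterol transporter of the lysosomal membrane, were higher in both pairs, and Npc2, which hands it cholesterol, was within the limit at 0.39 and 0.37. Psap was at 2944 CPM in Gpnmb macrophages against 1227 CPM in resident macrophages of the deletion-labelled genotype and at 3178 against 1295 CPM in the control genotype, giving 1.26 and 1.29. Among the membrane genes Cd68, the glycoprotein used as a macrophage marker, was at 900.3 against 375 CPM in the deletion-labelled and 1000.4 against 413 CPM in the control pair, giving 1.26 and 1.28, and Cd63 gave 0.70 and 0.59. Lamp1 did not pass the limit, at 0.53 and 0.21. Lamp2 stood at -0.39 in the deletion-labelled and -0.88 in the control pair, and Laptm5 at -0.40 and -0.97, so that each was lower in the control pair alone. Tfeb itself did not pass the limit, at -0.31 and -0.45. Mcoln1, the channel through which the lysosome releases calcium, was at 12.7 against 16.7 CPM in the deletion-labelled and 11.0 against 19.6 CPM in the control pair, giving -0.39 and -0.83.

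**Figure D2:**
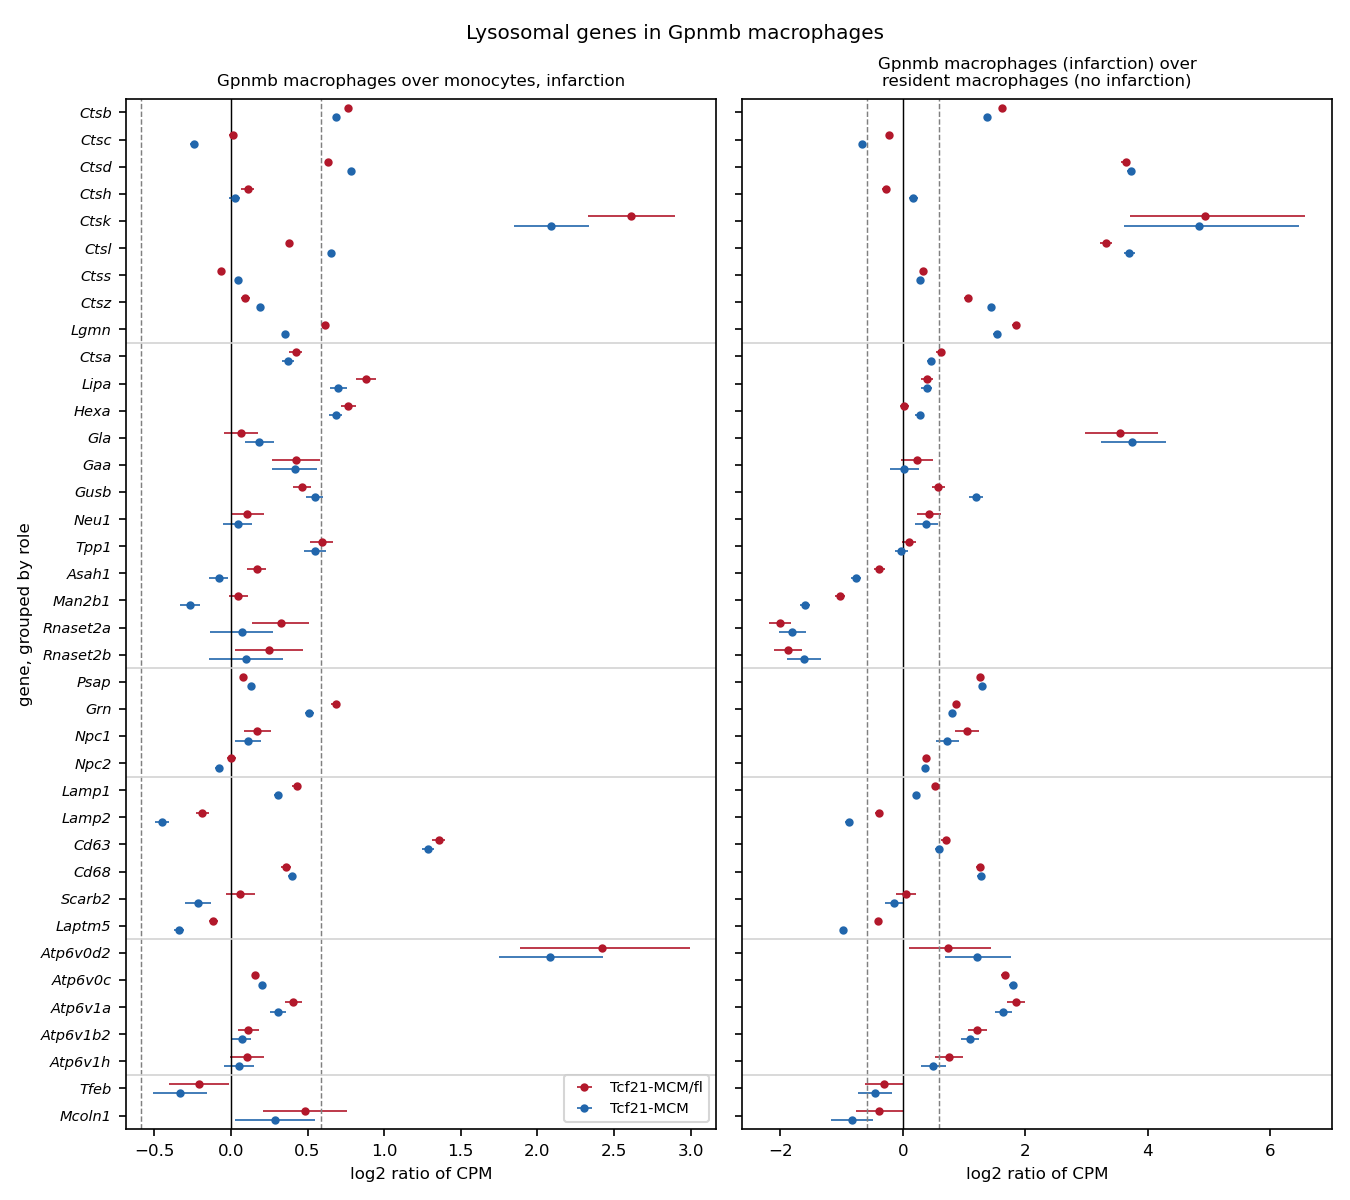
Log2 ratios of CPM for the 38 genes in Gpnmb macrophages over monocytes of the same library (left) and over resident macrophages of hearts without infarction (right), in red for deletion-labelled (MCM/fl) and blue for control (MCM) hearts. Bars are exact 95% counting intervals and dashed lines mark 1.5-fold, and Ctsd, Ctsl and Gla lie above 3 on the right in both genotypes.

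Promoter windows were searched for the CLEAR element of TFEB, which holds the letters CACGTG, or TCACGTGA in its longer form. RefSeq windows (build GRCm38.p6) of 250 bases before to 50 after a gene's start were at hand for 31 of the 38 genes. CACGTG, which reads the same on both strands, was in the windows of 9 of the 31, or 29.0%, against 8.09% of 27025 genes, and TCACGTGA, which contains it, in 5, or 16.1%, against 1.12%. The letters GAGGAAGT, on either strand, which the myeloid factor PU.1 binds, were in 4, or 12.9%, against 3.69%. The 9 with CACGTG were Atp6v1a, Ctsa, Ctsd, Ctsl, Gaa, Gla, Lamp1, Lgmn and Mcoln1. Their median log2 ratio of Gpnmb over resident macrophages was 1.85 in the deletion-labelled and 1.53 in the control pair, with 6 and 5 genes higher and 0 and 1 lower. A gene counted as a carrier where any of its windows held the letters. Ctsa and Lgmn also had a window without them, and Lgmn's own ratios were 1.85 and 1.53. The 22 genes with a window and no CACGTG had medians of 0.36 and 0.33, with 7 and 8 higher and 3 and 6 lower. Gaa, Lamp1 and Mcoln1 carry the letters and were not higher in either pair, and Ctsk, with the highest ratio, does not carry them. Over monocytes the medians were 0.42 with and 0.13 without the letters in the deletion-labelled heart and 0.35 and 0.11 in the control heart. After infarction they were -0.24 with and -0.22 without the letters in deletion-labelled fibroblasts, -0.65 and -0.76 in control fibroblasts, 0.15 and 0.30 in deletion-labelled endothelial cells, and 0.28 and 0.23 in control endothelial cells. Carriers were not tested against the other genes, and a match shows only that the letters lie in the window.

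Windows of 5 carriers follow, 5 prime to 3 prime on the gene's strand, with CACGTG or TCACGTGA in capitals. They show the 3 genes with the widest gap to resident macrophages apart from Ctsk, 1 pump subunit, and Lamp1, which had 4 matches and did not pass the limit. Gla is at chrX:134600956-134601255 (minus strand), Ctsd at chr7:142387778-142388077 (minus), Ctsl at chr13:64370471-64370770 (minus), Atp6v1a at chr16:44139210-44139509 (minus) and Lamp1 at chr8:13158911-13159210 (plus).
Gla: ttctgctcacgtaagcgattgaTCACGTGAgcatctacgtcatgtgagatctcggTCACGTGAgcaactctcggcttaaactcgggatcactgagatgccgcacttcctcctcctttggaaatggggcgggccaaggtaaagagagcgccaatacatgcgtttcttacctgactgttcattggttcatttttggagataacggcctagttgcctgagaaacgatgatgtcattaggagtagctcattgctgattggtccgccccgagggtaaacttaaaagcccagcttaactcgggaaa
Ctsd: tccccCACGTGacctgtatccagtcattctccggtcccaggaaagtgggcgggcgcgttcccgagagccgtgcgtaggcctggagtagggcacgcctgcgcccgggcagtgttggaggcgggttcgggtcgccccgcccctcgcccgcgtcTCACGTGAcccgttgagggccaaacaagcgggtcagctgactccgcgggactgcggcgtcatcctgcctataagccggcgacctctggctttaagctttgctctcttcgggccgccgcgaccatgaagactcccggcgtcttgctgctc
Ctsl: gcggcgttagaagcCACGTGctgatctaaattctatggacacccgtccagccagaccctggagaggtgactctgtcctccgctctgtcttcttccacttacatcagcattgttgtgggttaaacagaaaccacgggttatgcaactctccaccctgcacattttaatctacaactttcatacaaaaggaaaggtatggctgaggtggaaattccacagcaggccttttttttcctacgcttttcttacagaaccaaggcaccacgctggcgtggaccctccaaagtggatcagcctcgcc
Atp6v1a: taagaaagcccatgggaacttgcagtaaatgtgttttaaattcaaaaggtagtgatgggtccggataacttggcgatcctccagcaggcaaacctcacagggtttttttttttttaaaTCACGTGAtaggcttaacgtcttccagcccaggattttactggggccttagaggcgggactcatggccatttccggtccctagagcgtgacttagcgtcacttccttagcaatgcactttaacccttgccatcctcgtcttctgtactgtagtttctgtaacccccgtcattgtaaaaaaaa
Lamp1: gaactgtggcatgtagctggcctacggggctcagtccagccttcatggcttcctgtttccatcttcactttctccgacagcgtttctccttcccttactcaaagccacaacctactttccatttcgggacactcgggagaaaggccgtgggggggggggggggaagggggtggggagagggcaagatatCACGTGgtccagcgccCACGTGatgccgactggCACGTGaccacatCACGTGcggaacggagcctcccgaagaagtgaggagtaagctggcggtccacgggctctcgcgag

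In fibroblasts more lysosomal genes were lower than higher after infarction. After infarction 6 of the 37 lysosomal genes past the filter were higher and 11 lower in the deletion-labelled heart, against 19.7% higher and 32.4% lower of 14363 genes. In the control heart 7 were higher and 20 lower, against 24.2% and 40.1% of 13863 genes. The members' median log2 ratio was -0.27 in the deletion-labelled and -0.75 in the control heart, where that of all genes was -0.21 and -0.30. The members of the deletion-labelled heart thus lay near the shares and the median of all genes, and those of the control heart below them. The 6 genes higher in both hearts were Ctsc, Ctss, Cd63, Cd68, Lgmn and Laptm5, and the 11 lower in both were Ctsl, Lamp1, Lamp2, Hexa, Gaa, Neu1, Psap, Mcoln1, Asah1, Rnaset2a and Rnaset2b. The infarction fibroblasts were deeper, with medians of 20076.5 and 31902 UMIs per cell in the deletion-labelled and control hearts against 13531 and 10623.5 without infarction. The 11 lower genes in the deletion-labelled heart became 7 when ratios were centred on the median of all genes and 6 with predicted doublets kept in or with CPM averaged over cells, and the 7 higher genes in the control heart became 11 with doublets kept in.

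Lamp2, the membrane protein needed for autophagosomes to fuse with lysosomes, was at 229 CPM after infarction against 455 CPM without it in deletion-labelled fibroblasts, and at 161 against 541 CPM in control fibroblasts. Its log2 ratios were -0.99 (-1.03 to -0.95) and -1.75 (-1.80 to -1.70). Lamp1, its partner, was at 358 against 540 CPM in deletion-labelled and 304 against 640.4 CPM in control fibroblasts, giving -0.59 (-0.63 to -0.56) and -1.07 (-1.11 to -1.04). Both LAMP genes were thus lower after infarction in each genotype, and further apart in the control. Psap was at 243 against 439 CPM in deletion-labelled and 170 against 471 CPM in control fibroblasts, giving -0.85 (-0.89 to -0.81) and -1.47 (-1.52 to -1.42). Gaa was at 31.2 against 62.6 CPM in deletion-labelled and 19.4 against 61.6 CPM in control fibroblasts, giving -1.0 (-1.11 to -0.89) and -1.67 (-1.81 to -1.53). Neu1 was at 10.9 against 20.9 CPM in deletion-labelled and 8.57 against 19.4 CPM in control fibroblasts, giving -0.94 and -1.18. Of the 12 other hydrolases, 6 were lower in the deletion-labelled and 10 in the control heart, and 0 were higher in either.

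Ctsl, which cuts matrix and endocytosed proteins, was at 626 CPM after infarction against 1065 CPM without it in deletion-labelled fibroblasts and at 542 against 1005 CPM in control fibroblasts, giving -0.77 and -0.89. Of the other fibroblast proteases, Ctsd and Ctsk lay within the limit in both hearts, and Ctsb was lower in the control heart alone. Ctsd gave 0.04 in the deletion-labelled and -0.07 in the control heart, and Ctsk -0.27 and -0.34. Ctsb stood at -0.27 in the deletion-labelled heart and was lower in the control heart at -0.92 (-0.96 to -0.88). The 4 pump subunits past the filter lay within the limit in both hearts, with Atp6v0c at 0.25 and 0.49.

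Cd63 was higher, at 1377 CPM after infarction against 889 CPM without it in deletion-labelled and 1437 against 853 CPM in control fibroblasts, for log2 ratios of 0.63 (0.61 to 0.65) and 0.75 (0.73 to 0.78). The other genes that were higher in both hearts are genes that phagocytes carry at far higher CPM, and free RNA from lysed phagocytes can give their UMIs to any cell. The level of 10 phagocyte genes such as Lyz2 and C1qa in fibroblasts after infarction, as a percentage of their highest phagocyte class, had a median of 0.737% and a highest value of 1.36% in the deletion-labelled heart, and of 0.915% and 1.43% in the control heart. Ctss stood at 0.823% in the deletion-labelled and 0.967% in the control heart and Cd68 at 0.868% and 0.867%, within that range. Laptm5 stood next to it at 1.42% and 1.46%, and Ctsc above it at 2.62% and 3.26%. All 4 were higher along with the phagocyte genes, whose median log2 ratio in fibroblasts was 2.06 in the deletion-labelled and 1.6 in the control heart, against 3.40 and 2.92 for Ctsc, 2.52 and 2.12 for Ctss, 2.35 and 1.78 for Laptm5 and 2.21 and 1.83 for Cd68. The levels of Ctss and Cd68 in fibroblasts could not be told from those of the phagocyte genes, and the part of free RNA in them was not tested.

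Lgmn was at 107 CPM after infarction against 22.7 CPM without it in deletion-labelled and 90.7 against 27.6 CPM in control fibroblasts, giving 2.23 (2.11 to 2.35) and 1.72 (1.59 to 1.85). Its level was 5.69% and 5.76% of the highest phagocyte class, above the 10 phagocyte genes. It was, however, of like size in endothelial cells after infarction, at 125 CPM in deletion-labelled and 132 CPM in control hearts. Mural cells stood at 111 and 132 CPM and B cells at 78.1 and 106 CPM. Neutrophils, with their highest cell left out, stood lower, at 49.4 and 53.1 CPM. In cells thinned to 2000 UMIs, Lgmn was found in 18.2% of deletion-labelled and 14.7% of control fibroblasts after infarction, against 13% and 20.2% of B cells, and before thinning in 75.5% and 79.4% against 19.4% and 24.0%. The part of free RNA in this increase was not tested.

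The fibroblasts of hearts with and without infarction lay mostly in different clusters. Cluster 6, led by Cthrc1, Timp1 and Tnc, held 916 of the deletion-labelled and 907 of the control fibroblasts after infarction and 8 in each library without it. Clusters led by Pi16 (cluster 8) and by Smoc2 (cluster 16) held the fibroblasts without infarction, and after infarction 303 and 171 cells of the deletion-labelled but 12 and 7 cells of the control heart. Where these clusters could be compared, in the deletion-labelled heart, the genes did not pass the limit. Lamp2 in the Pi16 cluster was at 383 CPM after infarction against 421 CPM without it (-0.14), and in the Smoc2 cluster the log2 ratio was 0.03. Psap gave 0.07 and 0.34 in these clusters, Gaa 0.17 and 0.35, and Lamp1 -0.20 and -0.07. Within the deletion-labelled infarction library, in contrast, the Cthrc1 cluster had Lamp2 at 189 CPM against 383 CPM in the Pi16 and 491 CPM in the Smoc2 cluster, giving -1.02 and -1.38. For Psap these ratios were -1.27 and -1.56, and for Gaa -1.15 and -2.0. For Ctsl they were -0.80 and -1.03, for Ctsb -0.82 and -1.16 and for Ctsk -0.57 and -1.03. Ctsd stayed within the limit, at -0.36 and -0.50. Cd63 was higher in the Cthrc1 cluster than in the Pi16 cluster, by 0.51 in log2, and than in the Smoc2 cluster, by 0.40, both within the limit.

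Lgmn was higher in the same clusters too, at 97.0 against 22.2 CPM in the Pi16 cluster (2.13) and 126 against 22.9 CPM in the Smoc2 cluster (2.46) of the deletion-labelled hearts. Rnaset2a stood at -1.50 in the Pi16 and -1.48 in the Smoc2 cluster and Rnaset2b at -1.38 and -1.61. Lgmn and the RNase T2 pair thus differed with infarction within these clusters. In the deletion-labelled infarction library, Rnaset2a was also lower in the Cthrc1 than in the Smoc2 cluster, at -1.0 (-1.45 to -0.53). Rnaset2b stood at -0.59 (-1.07 to -0.08) there. Over the Pi16 cluster these ratios were -0.54 (-0.91 to -0.15) and -0.08 (-0.48 to 0.35), both within the limit.

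**Figure D3:**
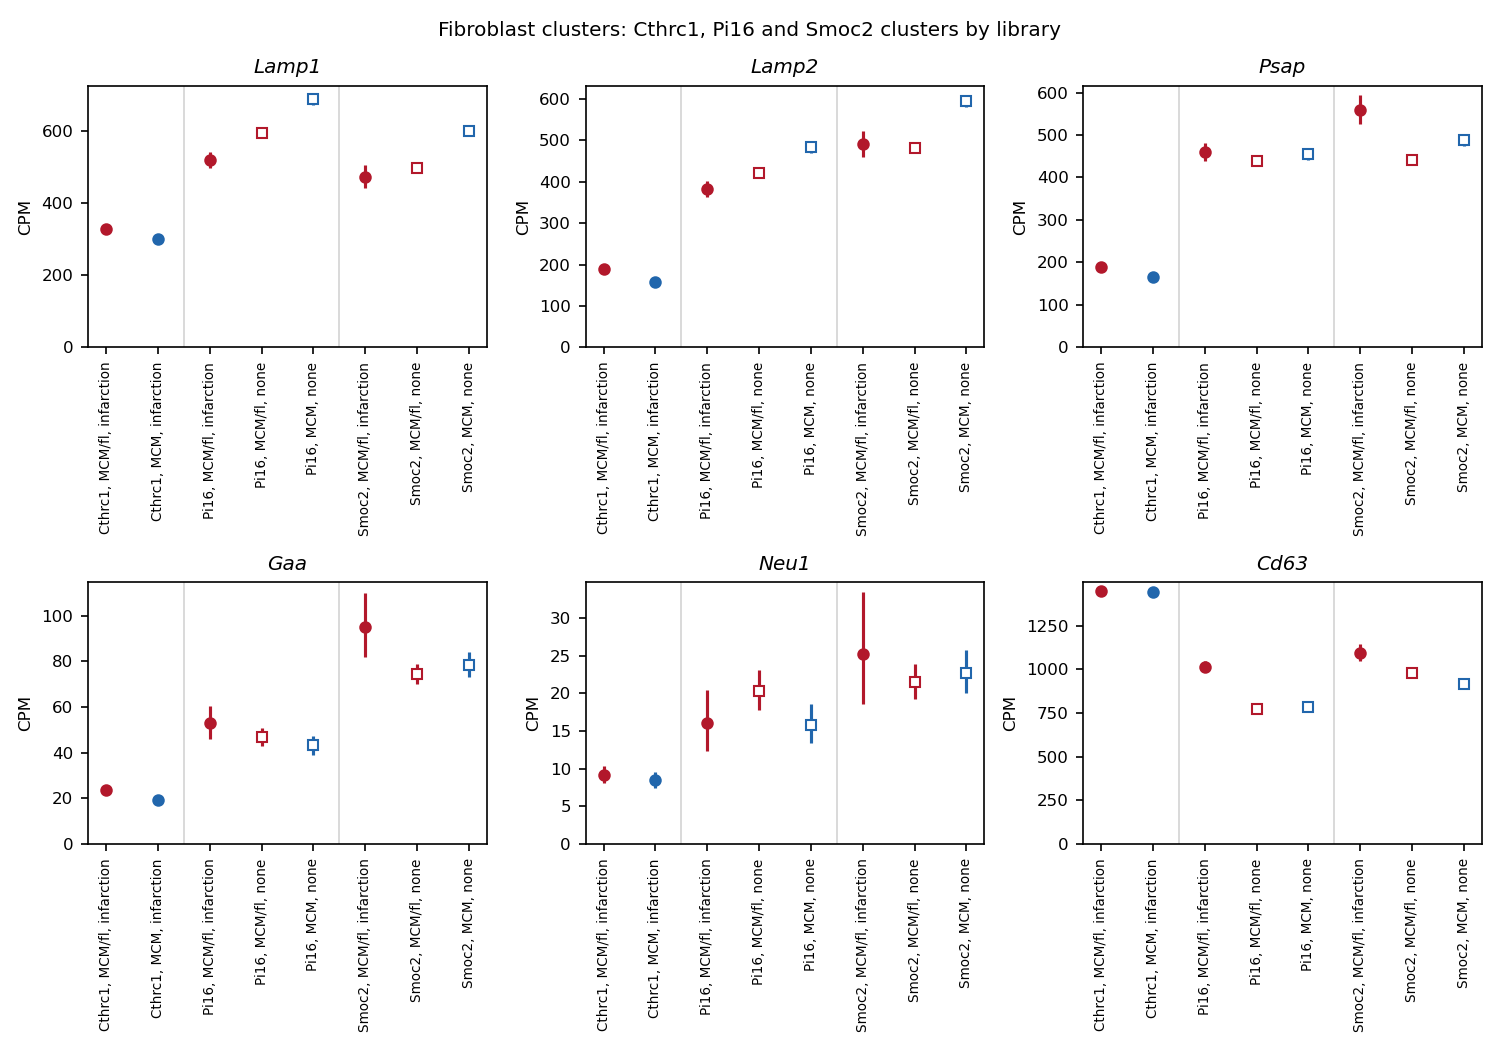
CPM of Lamp1, Lamp2, Psap, Gaa, Neu1 and Cd63 in the fibroblast clusters led by Cthrc1, Pi16 and Smoc2, 1 panel per gene, with filled circles for infarction, open squares for no infarction, red for deletion-labelled (MCM/fl) and blue for control (MCM) libraries. In the Cthrc1 cluster Lamp2 sits at 189 CPM in the deletion-labelled infarction library, below its values of 383 and 491 CPM in the other clusters of that library.

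Endothelial cells had higher lysosomal genes after infarction. In the deletion-labelled heart 13 of 37 genes were higher and 3 lower, against 18.7% higher and 22.9% lower of 11689 genes. In the control heart 14 were higher and 9 lower, against 24.6% and 33.9% of 10509 genes. The members' median log2 ratio was 0.30 in the deletion-labelled and 0.23 in the control heart, where that of all genes was -0.08 and -0.16. The 11 genes higher in both hearts were Ctsb, Ctsd, Ctsh, Ctsk, Ctss, Gla, Cd63, Cd68, Lgmn, Atp6v0c and Laptm5, and Mcoln1, Rnaset2a and Rnaset2b were lower in both. The cells numbered 551 and 227 after infarction in the deletion-labelled and control hearts, against 4526 and 3959 without it. With CPM averaged over cells, 5 genes in place of 9 were lower in the control heart.

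Cd63 was at 400.1 CPM after infarction against 39.2 CPM without it in deletion-labelled endothelial cells and at 453 against 43.5 CPM in control cells. Its log2 ratios were 3.35 (3.24 to 3.46) and 3.38 (3.24 to 3.52). In cells thinned to 2000 UMIs, Cd63 was found in 35.6% (31.4 to 39.9) of deletion-labelled and 47.0% (40.0 to 54.2) of control endothelial cells after infarction, against 7.58% and 7.12% without it, and in 4.96% and 7.86% of deletion-labelled and control B cells after infarction and 6.71% and 4.13% of those without it. Before thinning the endothelial shares were 53.0% and 67.4% after infarction against 17% and 13% without it. The share was thus above that of B cells after infarction and close to it without. Atp6v0c was at 421.5 against 219 CPM in deletion-labelled and 419 against 189.5 CPM in control cells, giving 0.94 (0.87 to 1.02) and 1.14 (1.04 to 1.24). Ctsb was at 510.3 against 238 CPM in deletion-labelled and 597 against 286 CPM in control cells, giving 1.10 and 1.06.

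The 10 phagocyte genes were raised in these cells as well, most in the deletion-labelled heart. Their level in endothelial cells had a median of 5.20% and a highest value of 9.17% of the highest phagocyte class in the deletion-labelled infarction library, 2.06% and 2.82% in the control infarction library, 0.372% and 0.609% in the deletion-labelled library without infarction and 0.760% and 1.92% in the control library without it. Their median log2 ratio between infarction and none was 2.84 in the deletion-labelled and 1.23 in the control heart. In the deletion-labelled infarction library Cd68, Atp6v0d2, Ctsc, Ctss, Lgmn and Ctsb lay at or below the highest of these genes, with Ctsb at 8.41% and Lgmn at 6.68%, and in the control library Ctsc, Ctss, Cd68 and Laptm5 did. Cd63 stood at 55.5% and 57.6% of its highest phagocyte level in the deletion-labelled and control hearts, far above that range. Ctsc was higher in the deletion-labelled heart alone, at 2.72 against -0.03 in the control heart, and Laptm5 gave 4.20 against 1.51, and the phagocyte genes likewise had the higher ratio in the deletion-labelled heart. The part of free RNA or of phagocytes caught with endothelial cells in these ratios was not tested.

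Endothelial clusters also changed places. Cluster 12, led by Vwf and Plvap, held 393 and 208 of the endothelial cells after infarction in the deletion-labelled and control hearts and 90 and 111 of those without it. Inside this cluster Cd63 was at 454 CPM after infarction against 165 CPM without it in the deletion-labelled and at 467 against 205 CPM in the control hearts, giving 1.46 and 1.18, less than over the whole class. Atp6v0c kept its size there, at 1.03 and 0.99. Ctsb gave 0.89 in the deletion-labelled and 0.38 in the control hearts. Ctsh turned round, at 80.5 against 345 CPM in the deletion-labelled and 74.5 against 402 CPM in the control hearts, or -2.10 and -2.43, where the whole class had 1.94 and 1.43. After infarction 10 cells held 35.1% of the class's Ctsh UMIs in the deletion-labelled and 67.7% in the control heart. Without infarction 10 cells held 49.5% and 46.2%. Leaving these cells out, Ctsh was at 45.2 and 23.1 CPM after infarction, against 9.18 and 14.2 CPM without it. Ctsk gave 0.06 and -0.40 inside the cluster, against 2.18 and 2.82 over the class. In control endothelial cells after infarction 10 cells held 85.1% of the Ctsk UMIs, and the class was at 2.69 CPM without them. The endothelial cells with at least 5 Ctsk UMIs, 4 in the deletion-labelled and 2 in the control infarction library, had fibroblast markers at a sum of 1956 and 917 CPM, against 413 and 256 CPM in the remaining endothelial cells. The part of fibroblast RNA in the Ctsk ratios was not tested.

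**Figure D4:**
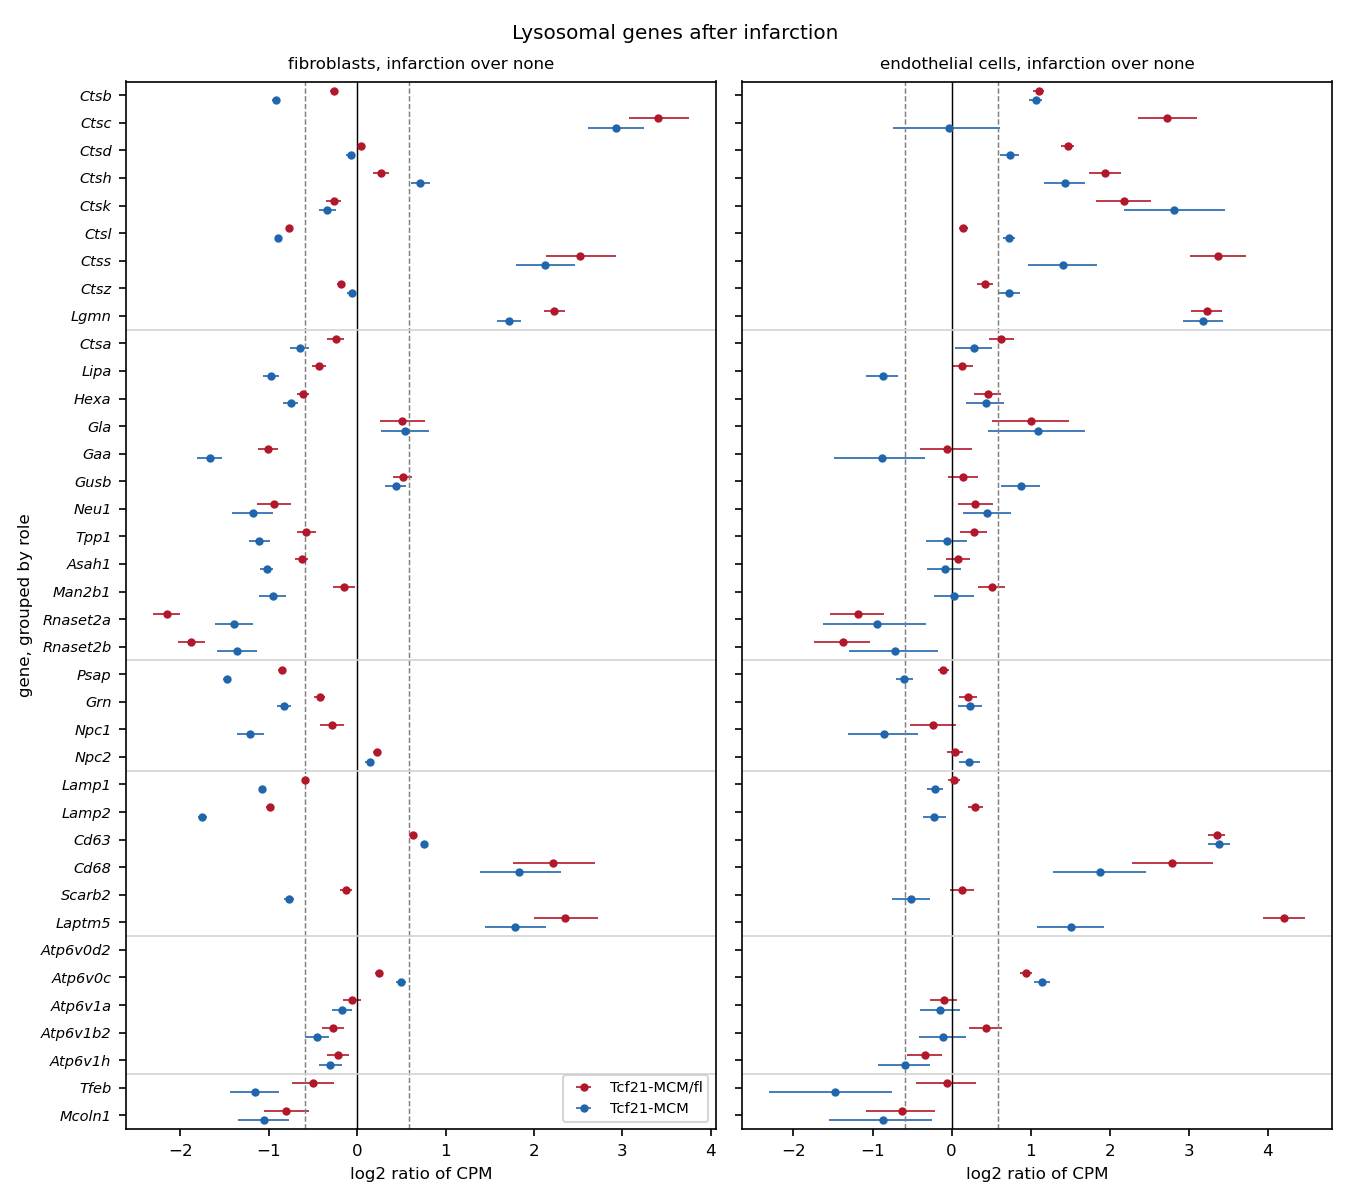
Log2 ratios of CPM after infarction over CPM without it for the lysosomal genes past the filter in fibroblasts (left) and endothelial cells (right), in red for deletion-labelled (MCM/fl) and blue for control (MCM) hearts, with exact 95% counting intervals and dashed lines at 1.5-fold. Lamp2, Gaa and Psap lie below the lower line in fibroblasts, and Cd63 lies above 3 in endothelial cells of both genotypes.

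In mural cells, which wrap small vessels, Cd63 was at 1266 CPM after infarction against 855 CPM without it in the deletion-labelled and 1550.4 against 837 CPM in the control hearts, giving 0.57 and 0.89. Ctsb gave 1.18 and 0.89 there. Neutrophils could be compared in the deletion-labelled hearts alone, with 3397 cells after infarction and 105 without it. After infarction 2610 of these cells lay in cluster 9 and 787 in cluster 10, while 101 of those without infarction lay in cluster 10. The ratios thus compare mostly different clusters of neutrophils. Neutrophil Atp6v0c was at 1136 against 457 CPM, giving 1.32, and Scarb2 gave 1.41. Ctsc, which activates the serine proteases of neutrophil granules, had 843 UMIs against 2, a log2 ratio of 3.84 (2.56 to 7.47) with the floor of 3 UMIs. Rnaset2a was lower after infarction in the deletion-labelled hearts at -0.81 in mural cells, -1.07 in B cells and -1.30 in T and NK cells, and in the control hearts at -1.81, -0.87 and -1.07 in these classes. The control mural value rests on 4 against 12 UMIs and did not pass the filter. With fibroblasts and endothelial cells, Rnaset2a was thus lower after infarction in both genotypes in 4 of the 5 classes compared. Its near-identical partner Rnaset2b can share its reads, so their sum is given too. The sum in B cells was at 35.5 against 75.8 CPM in deletion-labelled and 30.3 against 49.1 CPM in control hearts. In T and NK cells it was at 66.5 against 164 CPM and 52.0 against 105 CPM. Rnaset2b alone in control B cells was within the limit, at 16.8 against 24.5 CPM.

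Between genotypes few lysosomal genes differed. In fibroblasts without infarction 2 of 37 were higher in the deletion-labelled heart and 3 lower, against 8.19% higher and 6.31% lower of 13692 genes. In fibroblasts after infarction 3 of 37 were higher and 0 lower, against 11.9% and 4.19% of 14215 genes. In Gpnmb macrophages 1 of 38 was higher and 1 lower, against 9.43% and 2.63% of 11910 genes, and in monocytes 0 were higher and 1 lower, against 6.23% and 2.91% of 12015 genes. In resident macrophages without infarction 2 of 37 were higher and 0 lower, against 8.02% and 7.29% of 11205 genes. In neutrophils after infarction 2 of 38 were higher and 2 lower, against 6.59% and 7.41% of 10898 genes, and in endothelial cells without infarction 3 of 37 were higher and 4 lower, against 8.51% and 6.94% of 13210 genes. These counts of 4 or fewer moved with single genes. With CPM averaged over cells, 7 genes were higher in fibroblasts after infarction, and with predicted doublets kept in 1 was lower in fibroblasts without it. The called shares lay near those of all genes or below them, except that 4 of 37 were lower in endothelial cells. The members' median log2 ratios lay between -0.12 in endothelial cells without infarction and 0.21 in fibroblasts after it.

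Over these 7 comparisons the RNase T2 pair made 10 of the 13 calls of a higher gene and 0 of the 11 calls of a lower one. Rnaset2a (chr17:8115445-8148097, minus strand, mm10) and Rnaset2b (chr17:6970634-7011299, plus strand) encode the same enzyme, and their transcripts match at 2435 of 2448 aligned bases and at 299 of the last 300, where the reads fall, so counts of each gene alone are uncertain. In fibroblasts without infarction Rnaset2a was at 59.6 CPM in the deletion-labelled and 24.6 CPM in the control heart and Rnaset2b at 51.5 and 21.9 CPM. Their sum was at 111 against 46.6 CPM there, a log2 ratio of 1.25 (1.15 to 1.36). In resident macrophages the sum was at 169 against 93.4 CPM, giving 0.86 (0.69 to 1.02), and in endothelial cells without infarction at 75.1 against 36.4 CPM, giving 1.04 (0.91 to 1.18). After infarction it was at 43.6 against 28.3 CPM in Gpnmb macrophages (0.62 (0.47 to 0.77)) and at 35.5 against 26.7 CPM in monocytes (0.41 (0.26 to 0.56)).

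Across the 16 pairs of class and treatment with enough cells, the sum of Rnaset2a and Rnaset2b was higher in the deletion-labelled library in 16. It was at least 1.5-fold higher in 12, its interval lay above 0 in 13, and its log2 ratios ran from 0.23 in B cells after infarction to 1.25 in fibroblasts without it. The 3 pairs whose interval reached below 0 were B cells, T and NK cells and mural cells after infarction. Each treatment has 1 library per genotype, so hearts, strain background and genotype cannot be told apart.

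**Figure D5:**
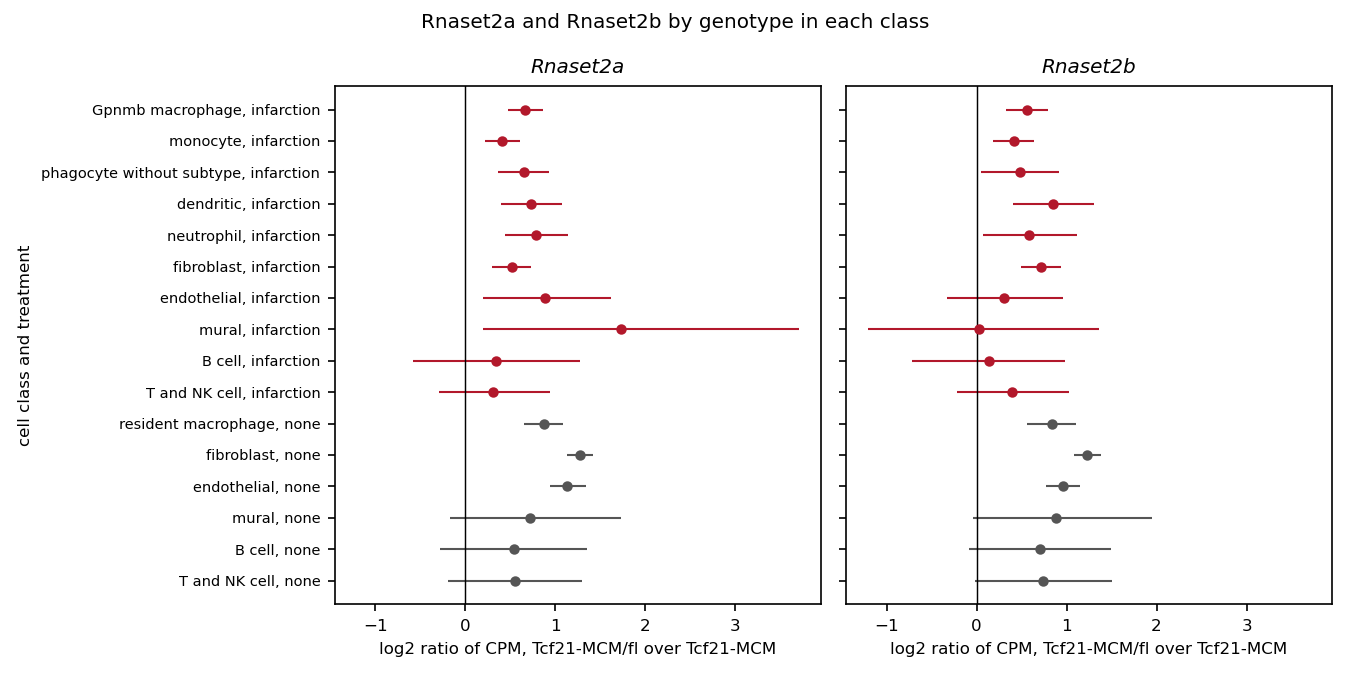
Log2 ratio of CPM in deletion-labelled (MCM/fl) over control (MCM) libraries for Rnaset2a (left) and Rnaset2b (right) in each cell class, in red after infarction and gray without it, with exact 95% counting intervals. All 16 ratios of each gene lie above 0. The highest are 1.73 for Rnaset2a in mural cells after infarction, from 26 against 4 UMIs, and 1.23 for Rnaset2b in fibroblasts without infarction.

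Scarb2 was lower in deletion-labelled fibroblasts without infarction, at 117 CPM against 236 CPM in the control, or -1.01 (-1.08 to -0.95). After infarction it was at 108 CPM in deletion-labelled against 139 CPM in control fibroblasts, within the limit. Atp6v0d2 was lower in Gpnmb macrophages, monocytes and neutrophils of the deletion-labelled infarction library. It was at 8.22 CPM against 15.1 CPM in Gpnmb macrophages, giving -0.88 (-1.16 to -0.60), at 1.54 against 3.56 CPM in monocytes, giving -1.21 (-1.82 to -0.64), and had 0 UMIs against 24 in neutrophils, where the interval of the log2 ratio ended at -2.62. Those 24 UMIs came from 11 cells, of which 10 held 95.8%. In phagocytes with no subtype Atp6v0d2 went the other way, with 22 UMIs in the deletion-labelled and 16 in the control library, or 3.03 against 2.0 CPM and 0.60 (-0.39 to 1.63). Without the 10 highest cells of each library the Gpnmb macrophage ratio of Atp6v0d2 was -1.15. In monocytes the call ended under 4 of the alternatives, and with the members among the clustering genes the ratio was 0.15. In fibroblasts after infarction Gaa was at 31.2 CPM in the deletion-labelled and 19.4 CPM in the control heart (0.69), Man2b1 at 32.3 and 20.4 CPM (0.66), and Rnaset2b at 14.1 and 8.57 CPM (0.71). Within the Cthrc1 cluster alone these were 0.32 for Gaa, 0.47 for Man2b1 and 0.67 for Rnaset2b, so that Rnaset2b was the 1 gene of the 3 that passed the limit there.

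Ctss and Ctsc in fibroblasts without infarction were lower in the deletion-labelled heart, at -0.92 and -0.64, and so were Ctss, Ctsc, Cd68 and Laptm5 in endothelial cells without infarction, at -1.25, -1.07, -0.90 and -0.68. The 10 phagocyte genes in fibroblasts without infarction moved the same way, with a median log2 ratio of -0.76. The members' levels there lay within the range of these phagocyte genes or next to it, for Ctss at 0.187% of the highest phagocyte class in deletion-labelled and 0.27% in control fibroblasts. The part of free RNA in these levels was not tested. Ctsk in endothelial cells without infarction was at 5.94 CPM in the deletion-labelled and 2.57 CPM in the control heart, giving 1.21 (0.70 to 1.75). These were 6.75% and 3.43% of its fibroblast levels, where 10 fibroblast markers in endothelial cells reached up to 5.03% and 5.39% of theirs. The part of fibroblast RNA in this ratio was not tested.

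Other genes of the lysosome were counted from lists beside the members. Over resident macrophages, 21.7% of all genes were higher and 28.5% lower in the deletion-labelled pair, and 22.7% and 38.7% in the control pair. Of the 13 other pump subunits past the filter, 8 were higher and 0 lower in Gpnmb than in resident macrophages of the deletion-labelled genotype, and 7 higher and 1 lower in the control genotype, with Atp6v1c1 at 1.78 and 1.45 and Tcirg1, the osteoclast and macrophage subunit, at 1.59 and 1.73. Against monocytes, 0 of 13 passed the limit in either heart. Of all genes 17.3% were higher there and 9.2% lower in the deletion-labelled heart, and 16.4% and 12.1% in the control heart. Of the enzyme sorting genes, 5 of 10 were higher and 0 lower in the deletion-labelled and 4 higher and 1 lower in the control pair. Igf2r, a receptor that carries tagged enzymes to the lysosome, was at 85.1 CPM in Gpnmb macrophages against 8.78 CPM in resident macrophages of the deletion-labelled genotype and at 90.2 against 7.14 CPM in the control genotype, giving 3.28 and 3.66. Other lysosomal hydrolases split as the members did, with 9 of 29 higher and 5 lower in the deletion-labelled and 6 of 28 higher and 7 lower in the control pair. Acp5, the acid phosphatase of osteoclasts, was at 104 against 10.3 CPM in the deletion-labelled and 147 against 6.94 CPM in the control pair, giving 3.34 and 4.40, and Ctsf gave -4.04 and -5.00. Among the factors that signal from the lysosome, 3 of 11 were higher and 2 lower in the deletion-labelled and 3 higher and 4 lower in the control pair. Fnip2 led these at 2.26 and 1.54, while Tfe3, a relative of Tfeb, stood at -0.94 and -1.30.

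In fibroblasts after infarction, 3 of 29 other hydrolases were higher and 15 lower in the deletion-labelled heart, and 2 of 28 higher and 20 lower in the control heart. For these counts and those below, 19.7% of all genes were higher and 32.4% lower in the deletion-labelled heart, and 24.2% and 40.1% in the control heart. Ctsf, a cathepsin, gave -2.12 and -3.65 and Manba, a mannosidase, -1.97 and -2.60. Of the enzyme sorting genes 0 of 10 were higher in either heart and 4 and 6 were lower, with the sorting receptor Sort1 at -2.26 and -2.85. Of the other membrane genes 2 of 18 were higher and 8 lower in the deletion-labelled and 3 of 17 higher and 9 lower in the control heart, with Tpcn1, a calcium channel, at -1.86 and -2.57 and the cystine exporter Ctns at -1.30 and -2.35. The cathepsin inhibitors went both ways, with Cstb at 0.95 and 1.41 and Cst3, cystatin C, at -1.41 and -2.09.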

How the data were processed

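Single-cell RNA was measured in 4 libraries (10x Genomics 3' v3.1, per the labels' protocols). Raw UMI counts of genes by cell barcode were deposited. They come from Cell Ranger 5.0.1 and build mm10, per the submitters' processing notes. From these, cells were kept with 500 or more UMIs, 200 or more genes and a mitochondrial share of 20% or less, which removed 544 barcodes of the deletion-labelled and 250 of the control infarction library, and 367 of the deletion-labelled and 205 of the control library without infarction. Predicted doublets (highest Scrublet scores, at 0.8% per 1000 barcodes) took out 854, 792, 999 and 640 more from these libraries. All cells were clustered together on 2000 variable genes that excluded the 38 members, with 30 components and 20 neighbours, by the Leiden method at resolution 1.0 (Python 3.11.15, scanpy 1.11.5, igraph 0.11.9, scikit-learn 1.9.0). To be named, a cluster needed a class whose markers exceeded their share in the remaining cells by 0.1 on average, with 3 of them present in 20% of its cells, limits set after the data had been seen.

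Counts were summed by class and library where 50 or more cells were found and divided by all UMIs of that sum. A gene passed the low-count filter where the pooled rate gave at least 10 UMIs in the smaller sum. Ratios use a floor of 3 UMIs and exact 95% intervals (Clopper-Pearson on the pooled UMIs, scipy 1.17.1), which cover counting error only. Shares of cells were taken after thinning to 2000 UMIs per cell, which left out shallower cells. The counting was tested on simulated data. Comparisons of Gpnmb with resident macrophages within an infarction library were planned, but these libraries held under 50 resident macrophages, so those of hearts without infarction were used. Every member could be named, and of each list of other lysosomal genes the 2 highest and 2 lowest ratios. The members and lists were chosen with earlier results of these data known.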

Additional observations from a re-analysis of the deposited data

How the results depend on the processing

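No paired analysis was possible because there is 1 library in each group, and for the same reason no library could be left out. Of the values of single members under other settings, 3507 moved by less than their counting interval, 1089 moved by more, and 3 turned the direction of a gene that had been called. Counting genes within the limit too, 193 values had the other sign. At resolution 0.6 in the deletion-labelled hearts, Lipa in Gpnmb macrophages over monocytes became -0.12 and Atp6v0d2 in Gpnmb over resident macrophages became -0.073. With the members among the clustering genes, Atp6v0d2 in deletion-labelled over control monocytes became 0.15. Resolution 0.6 left under 50 monocytes in the control infarction library, against 1434 in the main setting, so its 2 comparisons were not made.

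Of the counts of called members, 242 stayed within 1.5 times the main count and 44 did not. For Gpnmb macrophages over monocytes, the higher genes in the deletion-labelled heart were 6 with median scaling, 18 with doublets kept, 22 (with 3 lower) at resolution 0.6, 16 at resolution 1.6 and 3 at a 2-fold limit. In the control heart they were 16 with doublets kept, 13 with a mitochondrial limit of 10%, 17 at resolution 1.6 and 3 at 2-fold. Over resident macrophages, the lower genes in the control pair were 5 with median scaling and 3 at 2-fold. For infarction in fibroblasts, the lower genes in the deletion-labelled heart were 7 with median scaling, 6 with CPM averaged over cells, 6 with doublets kept and 3 at 2-fold, and in the control heart 12 at 2-fold, where 11 were higher with doublets kept. In control endothelial cells 5 were lower with averaged CPM and 1 at 2-fold.

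Between genotypes, lower genes in fibroblasts without infarction were 1 with doublets kept and 1 at 2-fold. Higher genes in fibroblasts after infarction were 7 with averaged CPM, 0 at 2-fold and 1 in the Cthrc1 cluster alone, an alternative chosen after seeing the data. In Gpnmb macrophages 0 were higher with median scaling, at resolution 0.6 and at 2-fold, and 0 were lower at 2-fold. In monocytes 0 were lower with doublets kept, with the 10% limit, with members among the clustering genes and at resolution 1.6, where 1 was higher. In resident macrophages 2 were lower with averaged CPM and 0 higher at 2-fold. In neutrophils 1 was lower with median scaling, averaged CPM, doublets kept, the 10% limit, resolution 1.6 and 2-fold, and 0 were higher at 2-fold. In endothelial cells without infarction 2 were lower at 2-fold. The cause of these shifts was not tested. Counting intervals leave out the spread between hearts, which 1 library per group cannot give.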

Other observations

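A few barcodes of the infarction libraries held very many Ctsk UMIs. In the deletion-labelled infarction library 6 barcodes had 50 or more, and they held 37.8% of that library's 5708 Ctsk UMIs. In the control infarction library 1 barcode did, with 345 of 3110 Ctsk UMIs or 11.1%, and in the libraries without infarction there were 0 in either genotype. Of the 6, 1 was kept among the Gpnmb macrophages, 4 had been removed as predicted doublets and 1 by the filters. The 7 barcodes held 74 to 385 UMIs of Acp5, a phosphatase of osteoclasts, 11 to 76 of Atp6v0d2, 1 to 40 of Nfatc1 and 0 to 473 of Mmp9, all known from osteoclasts, and 0 to 3 of the collagen gene Col1a1. They were singled out after their values were seen, and whether each is 1 cell or several was not tested.

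The cathepsin inhibitors went both ways in Gpnmb macrophages. Of all genes, 17.3% were higher and 9.2% lower than in monocytes in the deletion-labelled heart, and 16.4% and 12.1% in the control heart. Against resident macrophages these shares were 21.7% and 28.5% in the deletion-labelled and 22.7% and 38.7% in the control pair. Against monocytes, 3 of 7 were higher and 2 lower in Gpnmb macrophages of the deletion-labelled heart and 3 of 6 higher and 1 lower in the control heart, with Serpinb6a at a log2 ratio of 2.04 and 1.88. Against resident macrophages, 1 of 4 was higher and 2 lower in the deletion-labelled and 2 of 5 higher and 2 lower in the control pair. Cstb, a cytosolic inhibitor, stood at 2.95 in the deletion-labelled and 3.28 in the control pair, and the secreted inhibitor Cst3 at -1.48 and -1.50. Of the other hydrolases, 14 of 29 were higher and 2 lower than in monocytes in the deletion-labelled and 9 of 29 higher and 2 lower in the control heart, with Naglu at 1.10 and 1.05 and Gm2a, a lipid carrier, at -0.78 and -0.80. In endothelial cells after infarction the other hydrolases went both ways, with 7 of 28 higher and 5 lower in the deletion-labelled and 6 of 26 higher and 6 lower in the control heart. Of all genes in endothelial cells, 18.7% were higher and 22.9% lower in the deletion-labelled heart, and 24.6% and 33.9% in the control heart. Litaf, a membrane protein of late endosomes, stood at 1.71 and 2.19 there.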
